A study of Mus musculus with 21 samples.

Results

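The comparison is between mouse embryonic stem cells given the rescue factor miniSOX and untransduced cells of the same line, both grown in 2i. It takes in 5 of the 21 libraries of the series, chosen by their labelled line and medium: 2 of miniSOX cells and 3 of untransduced cells (NTC). All belong to 2TS22C, an embryonic stem cell line. In miniSOX cells, per the labels, a lentivirus supplied the factor, the cells' own SOX2 was silenced and doxycycline was given. NTC cells are labelled wild type, and the labels give doxycycline for none of them. The contrast therefore holds the factor, the loss of SOX2, the transduction and the drug together, and these cannot be told apart within it. The labels give miniSOX by name only and name no promoter, clone or number of integrations. Other cells of the series carry SOX2 itself or SOX17FNV, here FNV, a SOX17 protein changed by engineering, also with their own SOX2 silenced and under doxycycline. They gave 4 libraries each in 2i, which serve here for comparison and for a term of the fit described below. The 2 miniSOX and 2 NTC libraries grown in serum and LIF without 2i (SL) serve for comparison too. The other 4 libraries, of FNV and SOX2 cells in SL, enter only the shared estimate of the spread.

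SOX2 is a transcription factor that binds DNA together with OCT4 (gene Pou5f1) and is needed to keep embryonic stem cells pluripotent. SOX17 has the same kind of DNA-binding domain and is known as a regulator of endoderm. The 2i inhibitors block MEK, the kinase that activates ERK, and GSK3, the kinase that marks beta-catenin for destruction, and LIF acts through its receptor and STAT3. Cells held in this way are called naive, and cells on the way to differentiation pass through formative and primed states.

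The deposited values are whole numbers that had been normalized between libraries before deposit, with totals of 14044316 to 14047262 per library, so the sequencing depth is unknown. The values have no correction for gene length, and levels are compared only within a gene. Near the top the scale is coarse, with 31 distinct values among the 160 genes at 10000 or more in miniSOX library 1. The series came in 2 deposited sets. The first holds NTC replicates 1 and 2, and the second holds every miniSOX library and the remaining NTC library, called p31. The fit has a term for the deposited set, estimated from the NTC, SOX2 and FNV libraries in 2i, which lie in both sets. Log2 changes of miniSOX over NTC cells therefore also depend on SOX2 and FNV libraries, unless given within the second set or without that term. The SD of the log2 difference between libraries, over 3378 genes of middle level, was 0.123 between the miniSOX libraries and 0.107 between NTC 1 and 2, but 0.604 and 0.611 between NTC p31 and NTC 1 and 2. The gap was as wide between SOX2 p31 and SOX2 replicates 1 and 2, at 0.605 and 0.615, and narrower for FNV, at 0.488 and 0.512. A further library of the second set, p21, lay nearer to replicates 1 and 2, at 0.498 and 0.505 for SOX2 and 0.309 and 0.343 for FNV. Within the second set p21 and p31 differed by 0.281 for SOX2 and 0.436 for FNV, so the spread was not a uniform gap between sets. The trophectoderm factor gene Cdx2 stood at 106 and 86 in miniSOX cells, against 15 and 12 in NTC 1 and 2 and 519 in NTC p31. Many results, though not all, are therefore given with their value within the second set alone. That fit sets 2 miniSOX libraries against NTC p31, with the spread pooled over the other groups of that set. Where no such value is printed, the result may differ there. The sample titles call the later 2i libraries of NTC, SOX2 and FNV cells biological replicates and replicates 1 and 2 simply replicates, so these, and the miniSOX pair, may be technical repeats of 1 culture. The p-values measure the spread between these libraries. With replicates 1 and 2 of each group averaged into 1 value, 258 genes changed, 138 higher and 120 lower in miniSOX cells. In that fit 38 of the 96 changed genes named here kept their call, 3 glycolysis and 2 ERK feedback genes of the lists described here were lower, and no respiratory chain gene was higher.

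Markers of embryonic stem cells were present throughout. None of the 10 markers was at 0 in any of the 5 libraries, and their summed value was 64408 and 65269 in miniSOX libraries against 71575, 72663 and 42544 in NTC 1, 2 and p31. Of 15 measured markers of fibroblasts and feeder cells, 1 and 2 were at 0 in miniSOX libraries against 3, 3 and 5 in NTC libraries. With the widely expressed Vim left out they summed to 457 and 376 in miniSOX libraries against 234, 205 and 191 in NTC libraries. Of these 15, 7 rose in miniSOX cells (46.7% against 14.3% of all genes) and 2, Vim and Col1a2, fell (median log2 change 1.57). Without miniSOX replicate 1, 4 rose. The share of higher members was the highest among the 36 gene lists. Among those that rose, the collagenase gene Mmp2 stood at 73 and 92 in miniSOX cells against 19, 21 and 12 in NTC cells, and the fibrillar collagen genes stood at 13 and 18 against 6, 5 and 1 for Col1a1 and at 26 and 21 against 6, 0 and 0 for Col3a1. The collagen gene Col1a2 stood at 4 and 3 in miniSOX cells against 34, 33 and 40 in NTC cells. The part of such cells in the results below was not tested, and in bulk RNA fewer cells of a type and less RNA per cell cannot be told apart.

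Sox2 was low in the miniSOX libraries, as their label of silenced SOX2 has it, and Sox17 was high. Sox2 (GRCm38 chr3:34650405-34652461, plus strand) stood at 47 and 60 in miniSOX cells against 1310, 1362 and 2697 in NTC cells. Both miniSOX libraries lay far below every NTC library, a log2 change of -4.92 ± 0.41 (SE; limma, adjusted p = 1.28e-06), or -5.64 within the second set and -4.21 without NTC p31. Sox17 (chr1:4490931-4497354, minus strand) stood at 1813 and 1953 in miniSOX cells against 1, 0 and 0 in NTC cells. The log2 change of Sox17 was 11.05 ± 0.38 (adjusted p = 2.57e-10) on the log2(value + 1) scale, and 7.76 with a pseudocount of 10. Reads of an introduced SOX17 sequence and of the cells' own gene cannot be told apart in these values.

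In all, 4561 of 16443 genes changed (27.7%; limma on log2(value + 1), adjusted p under 0.05), 2347 of them higher (14.3%) and 2214 lower (13.5%) in miniSOX cells. Of these, 2147 changed by at least 2-fold, 1171 upward and 976 downward. In 3982 of the changed genes (87.3%) no miniSOX value lay within the range of NTC values, which was so for 49.4% of all genes. Within the second set alone 1538 genes were higher (9.35%) and 1304 lower (7.93%), and 2241 of the 4561 (49.1%) changed there in the same direction. None of the 4561 changed there in the opposite direction. Each list count below is to be read beside the share of all genes in the same fit. That share was smaller within the second set and with a miniSOX library left out. The number of changed genes was 2843 without miniSOX replicate 1 and 2718 without miniSOX replicate 2.

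**Figure D1:**
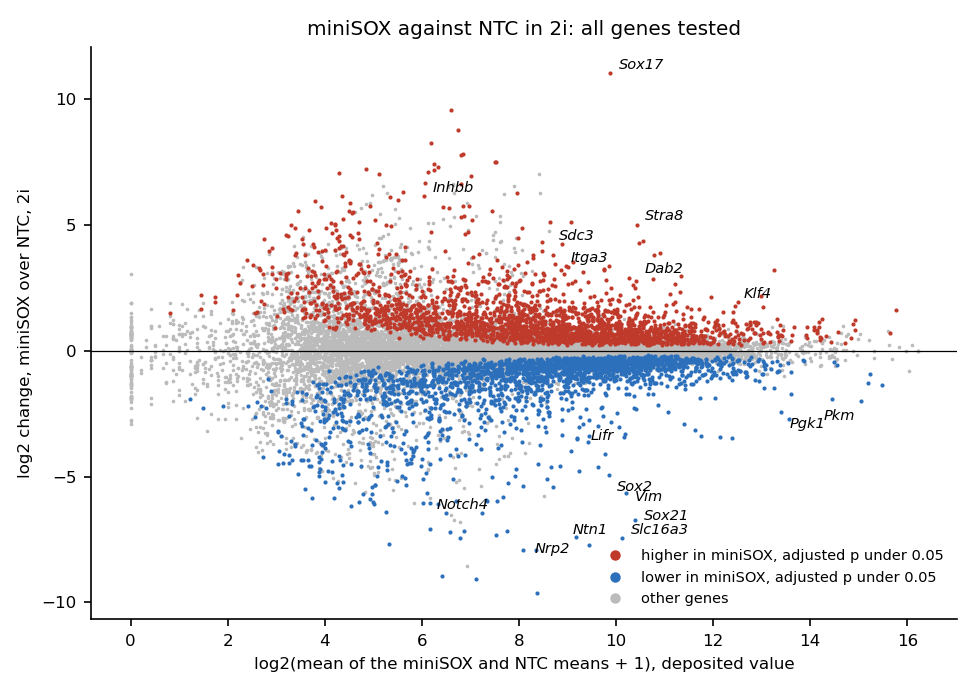
Log2 change of miniSOX over NTC cells in 2i (vertical) against the log2 of the mean deposited value of both groups (horizontal), 1 point a gene; red and blue points passed an adjusted p of 0.05. Sox17 lies highest at 11.05, and Ntn1, Nrp2 and Slc16a3 are among the genes lying lowest.

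Genes of nerve and vessel guidance, monocarboxylate export and Notch signalling were among the largest decreases. Ntn1 (chr11:68209364-68400823, minus strand), which encodes the guidance cue netrin-1, stood at 9 in both miniSOX libraries against 1182, 1037 and 1918 in NTC cells. It was nearly lost in miniSOX cells, with a log2 change of -7.72 ± 0.40 (adjusted p = 1.17e-08; -7.58 within the second set). Nrp2 (chr1:62703285-62818695, plus strand), a receptor for semaphorins and VEGF, stood at 6 and 11 in miniSOX cells against 901, 943 and 1603 in NTC cells. That is a log2 change of -7.39 ± 0.31 (adjusted p = 2.45e-09; -7.45 within the second set). Slc16a3 (chr11:120948480-120960868, plus strand), the lactate exporter MCT4, stood at 16 and 8 in miniSOX cells against 2566, 3108 and 991 in NTC cells. Its log2 change was -7.45 ± 0.93 (adjusted p = 5.34e-05), or -6.33 within the second set and -8.57 without NTC p31. Notch4, a Notch receptor, stood at 4 and 7 in miniSOX cells against 497, 463 and 247 in NTC cells. Vim, the intermediate filament vimentin, stood at 54 and 59 in miniSOX cells against 1272, 1422 and 4232 in NTC cells. Mycl, a member of the Myc family, stood at 24 and 25 in miniSOX cells against 538, 572 and 1309 in NTC cells. The groups were clearly apart for all 3, with log2 changes of -5.81 ± 0.57 for Notch4, -5.64 ± 0.33 for Vim and -5.41 ± 0.31 for Mycl (adjusted p = 5.65e-06, 4.29e-08 and 3.96e-08). Sox21, a SoxB gene, stood at 44 in both miniSOX libraries against 1415, 1399 and 5155 in NTC cells, a log2 change of -6.72 ± 0.55 (adjusted p = 1.16e-06). Sall3, a spalt-family transcription factor gene, stood at 5 and 3 against 85, 70 and 453 and fell by 5.95 ± 0.52 on the log2 scale (adjusted p = 1.81e-06).

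The 10 largest increases among genes kept by the naming rule were, after Sox17, of mixed kinds. They took in a TGF-beta family ligand, a thyroid hormone enzyme, cell surface proteins and a small GTPase, described below. They also held the amylase gene Amy2a5, the vomeronasal and olfactory receptor genes Vmn1r77 and Olfr1312, and the pseudogene Vmn2r-ps130. Amy2a5 has near-identical copies in the genome, so its value and that of the pseudogene are uncertain. Inhbb, the beta-B subunit of activin and inhibin, stood at 123 and 135 in miniSOX cells against 2, 1 and 1 in NTC cells. Both miniSOX libraries stood far above NTC cells, where Inhbb was close to the bottom of the scale; its log2 change of 6.14 ± 0.51 (adjusted p = 1.24e-06) was 3.84 with a pseudocount of 10. Dio3, the deiodinase that inactivates thyroid hormone, stood at 197 and 259 in miniSOX cells against 2, 1 and 7 in NTC cells (log2 change 5.35 ± 0.46, adjusted p = 1.58e-06). Sdc3, the heparan sulfate proteoglycan syndecan-3, stood at 772 and 757 in miniSOX cells against 40, 42 and 16 in NTC cells. The increase of Sdc3 was 5.14 ± 0.32 on the log2 scale (adjusted p = 9.15e-08; 5.49 within the second set). Megf11, a transmembrane protein with EGF-like repeats, stood at 186 and 163 against 20, 16 and 2 (log2 change 5.69 ± 0.43, adjusted p = 4.66e-07), and without a term for the deposited set its log2 change was 4.10. Rab3c, a small GTPase of vesicle release, stood at 172 and 166 against 1, 2 and 1 (log2 change 5.71 ± 1.26, adjusted p = 0.00382), with an adjusted p of 0.0501 within the second set. Cdh19, a cadherin gene, stood at 230 and 224 in miniSOX cells and is listed at 0 in all NTC libraries and in every FNV and SOX2 library in 2i. In SL it stood at 308 and 256 in miniSOX cells and is listed at 0 in both NTC libraries. Kctd12b is listed at 0 in both miniSOX libraries and in all 4 FNV libraries in 2i, against 554, 577 and 861 in NTC cells. Both genes jump from 0 to values over 20 with nothing between, and a 0 can be a failed estimate.

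**Figure D2:**
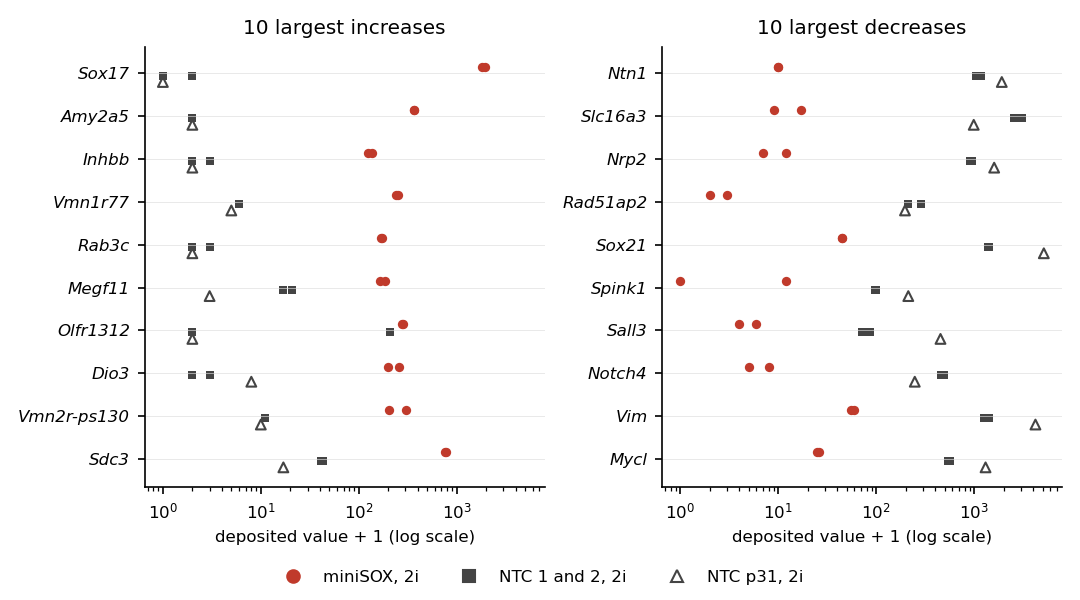
Deposited value plus 1 (log scale) in each miniSOX and NTC library in 2i for the 10 largest increases (left) and 10 largest decreases (right). They were taken from changed genes with no overlap and a mean of 50 or more where higher. Predicted genes, genes that jump from 0 to at least 20 and genes at 0 throughout a group were left out. Circles are miniSOX, squares NTC 1 and 2, and open triangles NTC p31. Amy2a5 has near-identical copies in the genome and Vmn2r-ps130 is a pseudogene, so their values are uncertain.

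Pluripotency genes moved both ways. Of 19 measured genes shared by pluripotent states 4 rose and 3 fell; 2 rose without miniSOX replicate 2 or NTC p31, 1 fell without either miniSOX library, and 1 rose and none fell without the term for the deposited set. Of the 10 stem cell identity markers 3 rose and 3 fell, and none did so without the set term; 1 rose and 1 fell without either miniSOX library, and 1 rose without NTC p31. Lin28a, a member of both lists and an RNA-binding repressor of let-7, stood at 106 and 121 in miniSOX cells against 174, 199 and 543 in NTC cells. Its log2 change of -2.10 ± 0.40 (adjusted p = 0.00145) did not pass within the second set (adjusted p = 0.085) or without the set term (-1.22).

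Of 20 measured naive genes 5 rose and 8 fell, with a median log2 change of -0.46, against a median of -0.014 over all genes; 4 fell without miniSOX replicate 2, and 4 fell within the second set. In the full fit 25% of these 20 genes rose and 40% fell, against 14.3% and 13.5% of all genes. Pou5f1 stood at 10050 in both miniSOX libraries against 9718, 10739 and 8466 in NTC cells, where the groups overlap (adjusted p = 0.86). Nanog, at 19699 and 21188 in miniSOX cells against 19699, 19699 and 11820 in NTC cells, also overlapped. Nanog passed the test at a log2 change of 0.53 ± 0.15 (adjusted p = 0.0175) but not without either miniSOX library or NTC p31 (log2 changes of 0.28 to 0.58), nor without the term for the deposited set (0.30). Zfp42, the stem cell marker REX1, stood at 6371 and 6871 in miniSOX cells against 12489, 12489 and 8025 in NTC cells. Its log2 change was -0.91 ± 0.33 (adjusted p = 0.0553), and without NTC p31 it was -1.55 (adjusted p = 0.0021).

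Klf4, a naive factor downstream of LIF, stood at 8736 in both miniSOX libraries against 2761, 2698 and 1981 in NTC cells. All NTC libraries were lower, with a log2 change of 1.79 ± 0.26 (adjusted p = 0.000141; 2.14 within the second set). Dppa3, the maternal factor STELLA, stood at 1531 and 1479 in miniSOX cells against 337, 317 and 387 in NTC cells. Dppa3 rose by a log2 change of 2.02 ± 0.31 (adjusted p = 0.000254), with 1.96 and an adjusted p of 0.05004 within the second set. Fbxo15, an OCT4 and SOX2 target, rose to 5475 and 5573 in miniSOX cells, against 3513, 3438 and 2253 in NTC cells (log2 change 1.11 ± 0.23, adjusted p = 0.00255, and 0.072 within the second set).

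Other naive genes went down. Nr0b1, the OCT4-interacting factor DAX1, stood at 21 and 17 in miniSOX cells against 486, 430 and 483 in NTC cells. This was a log2 change of -4.97 ± 0.75 (adjusted p = 0.000221; -4.60 within the second set), with the groups far apart. Tcl1, a co-activator of AKT, stood at 63 and 72 in miniSOX cells against 1351, 1293 and 376 in NTC cells. Its log2 change of -3.97 ± 0.86 (adjusted p = 0.00346) was -2.46 within the second set and -5.48 without NTC p31. Klf2, another Krüppel-like factor, fell to 1663 and 1824 in miniSOX cells, against 3967, 4088 and 4733 in NTC cells (log2 change -1.32 ± 0.23, adjusted p = 0.000731). Nr5a2, an orphan receptor that activates Pou5f1, stood at 781 and 927 in miniSOX cells against 1060, 1162 and 2253 in NTC cells (log2 change -1.49 ± 0.20, adjusted p = 7.63e-05), and without the term for the deposited set it did not pass (-0.72).

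Of 22 measured genes of the formative and primed states 1 rose, 8 fell (36.4% against 13.5% of all genes) and 13 did not pass (median -0.65), and within the second set 1 rose and 7 fell. Etv4, an ETS factor induced by FGF signalling, stood at 46 and 61 in miniSOX cells against 1025, 1028 and 1379 in NTC cells. The decrease of Etv4 was 4.79 ± 0.61 on the log2 scale (adjusted p = 5.55e-05), and -4.68 was its log2 change within the second set. Zic2, a zinc finger factor of the primed state, stood at 15 and 23 in miniSOX cells against 262, 214 and 316 in NTC cells (log2 change -3.36 ± 0.52, adjusted p = 0.000269; -4.02 within the second set and -2.70 without NTC p31). Lef1, a partner of beta-catenin, stood at 20 and 23 in miniSOX cells against 65, 68 and 286 in NTC cells (log2 change -2.66 ± 0.46, adjusted p = 0.00062; -3.68 within the second set and -1.65 without NTC p31).

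Feedback genes of the ERK pathway were lower. Of 17 measured ERK feedback and ETS targets, none rose and 9 fell (52.9% against 13.5% of all genes), with a median log2 change of -0.60; within the second set 5 fell and none rose. Both groups were grown with the MEK inhibitor of 2i. Spred1, an inhibitor of RAS signalling, stood at 359 and 357 in miniSOX cells against 927, 873 and 1265 in NTC cells. With little spread in either group, its log2 change was -1.75 ± 0.11 (adjusted p = 7.03e-08; -1.82 within the second set). Dusp6, the ERK phosphatase, stood at 17 and 33 in miniSOX cells against 193, 172 and 303 in NTC cells (log2 change -3.49 ± 0.59, adjusted p = 0.000553, and 0.062 within the second set). Spry4, a Sprouty inhibitor of receptor kinases, stood at 6 and 4 in miniSOX cells against 44, 44 and 148 in NTC cells (log2 change -3.77 ± 0.54, adjusted p = 0.000143; -4.65 within the second set and -2.89 without NTC p31). Both genes were lower in each miniSOX library than in any NTC library. Ier3, an early response gene, stood at 7 and 14 against 87, 72 and 70 (log2 change -2.82 ± 0.24, adjusted p = 1.39e-06). Spred2 stood at 547 and 525 against 917, 881 and 1010 (log2 change -1.02 ± 0.19, adjusted p = 0.00127, and 0.076 within the second set). Among 20 measured FGF ligands and receptors 1 rose and 4 fell (5% and 20%, against 14.3% and 13.5% of all genes). Fgf3, a secreted FGF, stood at 2 in both miniSOX libraries against 96, 87 and 93 in NTC cells (log2 change -4.98 ± 0.40, adjusted p = 9.88e-07).

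The receptors of LIF were lower while the LIF target Klf4 was higher. Of 18 measured genes of the LIF and STAT3 pathway 2 rose and 6 fell, with a median of -0.45, and 2 rose and 5 fell within the second set. In the full fit the higher members were 11.1% and the lower members 33.3% of the list, against 14.3% and 13.5% of all genes. Lifr (chr15:7090614-7197489, plus strand), the LIF receptor, stood at 188 and 165 in miniSOX cells against 1119, 936 and 1219 in NTC cells. No library overlapped, and the log2 change was -2.90 ± 0.17 (adjusted p = 5.45e-08; -2.78 within the second set). Il6st, the co-receptor gp130, fell to 1098 and 1071 in miniSOX cells, against 1804, 1769 and 2305 in NTC cells (log2 change -1.15 ± 0.07, adjusted p = 9.56e-08; -1.09 within the second set). Socs2, a feedback inhibitor of cytokine signalling, stood at 105 and 98 in miniSOX cells against 655, 611 and 437 in NTC cells (log2 change -2.34 ± 0.24, adjusted p = 7.07e-06). Stat3 itself stood at 708 and 764 against 1389, 1380 and 1207, with a log2 change of -0.63 ± 0.17 (adjusted p = 0.0131). The change of Stat3 did not pass within the second set (adjusted p = 0.11), without NTC p31 (0.074) or without miniSOX replicate 1 (0.085).

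Of 18 measured Notch pathway genes 1 rose, 6 fell (33.3% against 13.5% of all genes) and 11 did not pass (median -0.67), and within the second set none rose and 4 fell. Jag1, a Notch ligand, stood at 45 and 38 in miniSOX cells against 280, 262 and 575 in NTC cells. Its log2 change was -3.24 ± 0.30 (adjusted p = 2.72e-06; -3.77 within the second set), beside the drop of the receptor Notch4 given above (-5.29 within the second set). Notch1, a receptor found at higher values, fell to 940 and 921, against 1546, 1609 and 1674 in NTC cells (log2 change -1.09 ± 0.19, adjusted p = 0.000788, and 0.052 within the second set). Of 16 measured targets of Wnt and beta-catenin 1 rose and 6 fell (median -0.50, with 37.5% lower against 13.5% of all genes). Notum, a secreted Wnt inhibitor, stood at 10 and 11 in miniSOX cells against 100, 70 and 365 in NTC cells (log2 change -4.15 ± 0.47, adjusted p = 1.92e-05; -4.99 within the second set and -3.32 without NTC p31). Rnf43, which removes Frizzled receptors from the cell surface, stood at 88 in both miniSOX libraries against 21, 20 and 10 in NTC cells. Rnf43 rose by a log2 change of 2.92 ± 0.51 (adjusted p = 0.000676, and 0.060 within the second set). Apcdd1, another Wnt inhibitor, stood at 51 and 44 against 117, 135 and 738 (log2 change -3.85 ± 0.43, adjusted p = 1.82e-05), and without the term for the deposited set it did not pass (-2.24).

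Of 37 measured axon guidance genes 3 rose and 11 fell (29.7% against 13.5% of all genes; median -0.11), with 3 and 9 within the second set; without NTC p31, 6 rose. Slit3, a repulsive cue, stood at 30 and 23 in miniSOX cells against 327, 294 and 491 in NTC cells. Slit2 stood at 145 and 134 in miniSOX cells against 301, 288 and 1037 in NTC cells. Both were below every NTC library, with log2 changes of -3.73 ± 0.35 for Slit3 and -2.39 ± 0.27 for Slit2 (adjusted p = 3.42e-06 and 1.89e-05). Tubb3, the neuronal tubulin, stood at 16 and 18 in miniSOX cells against 203, 199 and 1178 in NTC cells (log2 change -5.38 ± 0.42, adjusted p = 7.44e-07; -6.04 within the second set and -4.72 without NTC p31). Cdh2, N-cadherin, stood at 13 and 19 against 91, 113 and 289 (log2 change -3.56 ± 0.39, adjusted p = 1.36e-05). The wider list of 14 neuroectoderm and neural genes had 3 higher and 2 lower members, with 1 higher without miniSOX replicate 1 or NTC p31 and none without miniSOX replicate 2.

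Glycolysis and hypoxia genes had the highest share of lower members among the 36 gene lists. Of 32 measured 1 rose and 20 fell (62.5% against 13.5% of all genes), with a median log2 change of -1.09, and within the second set 3 rose and 11 fell. Pgk1, phosphoglycerate kinase, stood at 2897 in both miniSOX libraries against 21185, 22912 and 12486 in NTC cells. Every NTC library stood far above, with a log2 change of -2.42 ± 0.24 (adjusted p = 5.1e-06; -2.11 within the second set). Pdk1, which holds pyruvate back from mitochondria, stood at 392 and 396 in miniSOX cells against 2621, 2621 and 1774 in NTC cells (log2 change -2.31 ± 0.19, adjusted p = 9.5e-07). Pkm, pyruvate kinase, stood at 10739 in both miniSOX libraries against 30387, 30387 and 40741 in NTC cells (log2 change -1.92 ± 0.16, adjusted p = 1.58e-06), on the coarse part of the scale. Eno1, the glycolytic enzyme enolase, fell to 3160 and 3209, against 7522, 7795 and 7307 (log2 change -1.18 ± 0.15, adjusted p = 6.46e-05). Egln3, an oxygen sensor of the hypoxia response, stood at 16 and 17 in miniSOX cells against 490, 572 and 355 in NTC cells. This drop of -4.71 ± 0.29 on the log2 scale (adjusted p = 7.74e-08; -4.35 within the second set) was as clear in each library. The only member that rose was Pfkm, the muscle form of phosphofructokinase, at 1089 and 1068 in miniSOX cells against 505, 567 and 361 in NTC cells (log2 change 1.28 ± 0.17, adjusted p = 8.96e-05).

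Respiratory chain genes went the other way, with smaller changes. Of 38 measured 16 rose and none fell (42.1% higher against 14.3% of all genes; median log2 change 0.36), and 4 of the 16 had overlapping libraries. Within the second set 10 rose and none fell. The count was 10 without miniSOX replicate 1, without miniSOX replicate 2 and without NTC p31, and 6 without the term for the deposited set; with replicates averaged none rose. Uqcrc1, of complex III, stood at 4524 and 4826 in miniSOX cells against 3034, 3134 and 3481 in NTC cells. It was higher in both miniSOX libraries, with a log2 change of 0.55 ± 0.12 (adjusted p = 0.00359; 0.42 within the second set). Atp5a1, of ATP synthase, stood at 14822 and 16427 in miniSOX cells against 8736, 8736 and 11389 in NTC cells (log2 change 0.64 ± 0.14, adjusted p = 0.00351, and 0.18 within the second set). Uqcrc2 stood at 2865 and 3057 against 2635, 2525 and 2209 (log2 change 0.49 ± 0.10, adjusted p = 0.0024), without passing in the second set (adjusted p = 0.077) or without the set term (log2 change 0.27).

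**Figure D3:**
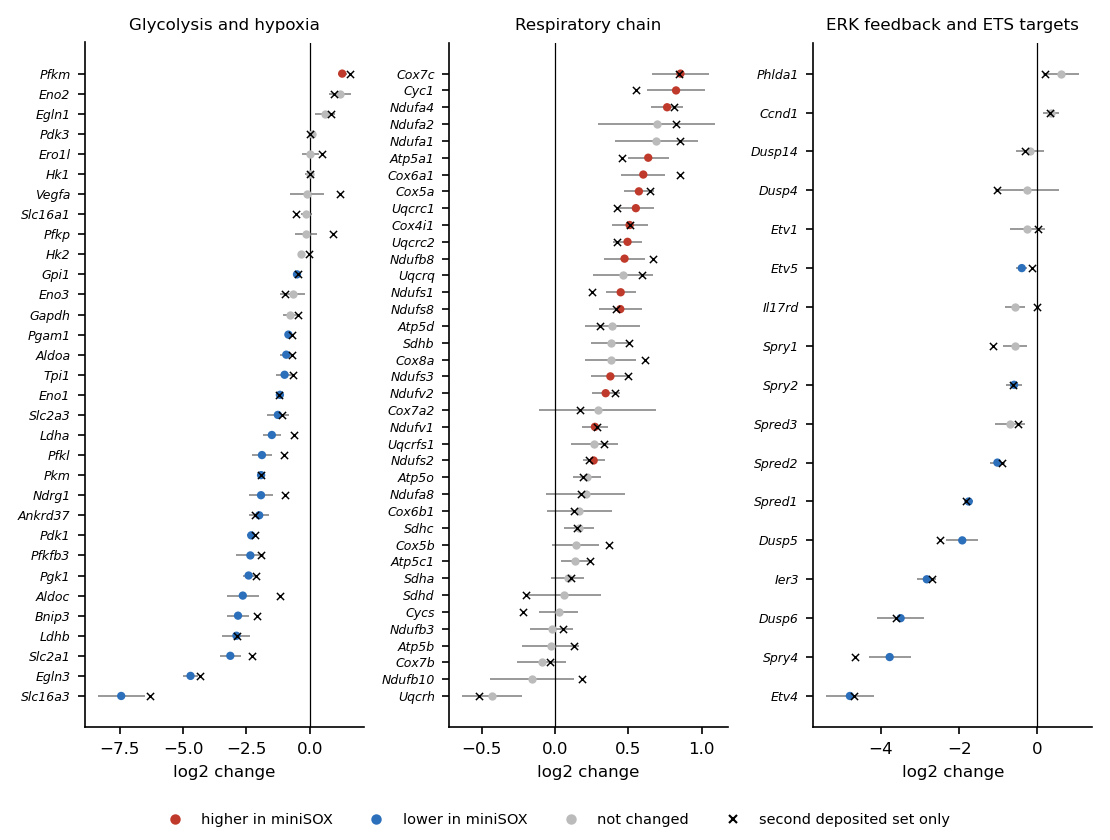
Log2 change of miniSOX over NTC cells in 2i, with its SE as a bar, for every measured member of 3 gene lists; crosses give the value within the second deposited set alone. Of the glycolysis and hypoxia members 20 lie significantly below 0, of the ERK members 9, and of the respiratory chain members none.

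Some markers of extraembryonic endoderm were higher and 2 were lower, and 16 of the 28 listed were measured. Of those measured 37.5% rose and 12.5% fell, against 14.3% and 13.5% of all genes. Of 16 measured regulators and receptors, of which Sox17 is 1, 6 rose and 2 fell; within the second set 3 rose and 3 fell. In the full fit Pth1r and Thbd were the members that fell. Dab2, an endocytic adaptor of primitive endoderm, stood at 2384 and 2503 in miniSOX cells against 240, 243 and 398 in NTC cells. Dab2 was many times higher in both miniSOX libraries (log2 change 2.78 ± 0.29, adjusted p = 8.36e-06; 2.61 within the second set). Gata6, the endoderm transcription factor, stood at 157 and 165 in miniSOX cells against 20, 16 and 76 in NTC cells. Its log2 change of 1.77 ± 0.43 (adjusted p = 0.00732) was 1.07 within the second set (adjusted p = 0.15), 2.47 without NTC p31 and did not pass with a pseudocount of 0.1 (adjusted p = 0.095). Lrp2, the endocytic receptor megalin, stood at 2384 and 2240 in miniSOX cells against 263, 259 and 1857 in NTC cells. NTC p31 lay close to the miniSOX libraries, and the log2 change of 1.44 ± 0.49 (adjusted p = 0.0418) was 0.32 within the second set and 2.56 without NTC p31. Lrp2 did not pass without any 1 of the other 4 libraries (adjusted p = 0.090 to 0.15).

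Matrix and adhesion genes changed in both directions. Of 19 basement membrane genes 6 rose and 4 fell; 7 and 2 did so within the second set, 2 and 4 without the term for that set, and 2 fell without miniSOX replicate 2. In the full fit 31.6% of the basement membrane genes rose and 21.1% fell, against 14.3% and 13.5% of all genes. Of 24 integrins and collagens 9 rose and 1 fell (37.5% higher and 4.17% lower, median 0.49). Sparc, a matrix glycoprotein, stood at 3618 and 3897 in miniSOX cells against 1640, 1804 and 1769 in NTC cells. Nid1, nidogen-1, stood at 6869 in both miniSOX libraries against 3056, 3034 and 1749 in NTC cells. Both rose, with log2 changes of 1.04 ± 0.12 for Sparc and 1.54 ± 0.19 for Nid1 (adjusted p = 1.66e-05 and 4.04e-05). Col4a1, the chain of type IV collagen, instead fell to 379 and 297, against 1475, 1521 and 2954 in NTC cells (log2 change -3.32 ± 0.58, adjusted p = 0.000797; -3.13 within the second set). Itga3 (chr11:95044474-95076801, minus strand), an integrin receptor for laminin, stood at 873 and 913 in miniSOX cells against 44, 42 and 85 in NTC cells. Its log2 change was 4.26 ± 0.36 (adjusted p = 1.28e-06), or 3.38 within the second set and 5.14 without NTC p31. Itga5, of the fibronectin receptor, stood at 1475 and 1399 in miniSOX cells against 593, 663 and 433 in NTC cells (log2 change 1.51 ± 0.19, adjusted p = 4.04e-05). Col5a1 stood at 211 and 209 against 24, 24 and 35 (log2 change 2.54 ± 0.27, adjusted p = 1.13e-05).

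Of 30 measured epithelial adhesion and junction genes 8 rose and 3 fell (26.7% and 10%, median 0.40). Of 32 trophectoderm and trophoblast genes 11 rose and 3 fell (34.4% and 9.38%, median 0.43). Over all genes 14.3% rose and 13.5% fell. Within the second set the counts were 6 and 2, and 8 and 4; without the term for the deposited set 5 epithelial genes rose and 5 fell, and 7 trophectoderm genes rose and 2 fell. Epcam, an epithelial adhesion molecule of stem cells, stood at 1303 and 1363 in miniSOX cells against 607, 700 and 439 in NTC cells. With no overlap its log2 change was 1.56 ± 0.11 (adjusted p = 2.39e-07; 1.60 within the second set). F11r, the junctional molecule JAM-A, rose to 927 and 973 in miniSOX cells, against 365, 319 and 385 in NTC cells (log2 change 1.39 ± 0.15, adjusted p = 1.26e-05). Perp, a desmosomal p53 target, stood at 225 and 206 against 53, 62 and 67 (log2 change 1.94 ± 0.17, adjusted p = 1.76e-06). Spint2, a protease inhibitor of epithelia, stood at 1018 and 1107 against 639, 646 and 201 (log2 change 1.95 ± 0.24, adjusted p = 3.74e-05), and without the set term it was 1.28 (adjusted p = 0.055). Elf3, an epithelial ETS factor, stood at 2016 and 2125 against 1222, 1286 and 1129 (log2 change 0.79 ± 0.13, adjusted p = 0.000457). Eomes, a trophoblast and mesendoderm factor, fell to 10 and 12 in miniSOX cells, against 26, 29 and 83 in NTC cells. Its log2 change was -2.72 ± 0.38 (adjusted p = 0.000117), and it did not pass without the set term (-1.77, adjusted p = 0.068).

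Stra8 (chr6:34920163-34939344, plus strand), a retinoic acid target that starts meiosis, stood at 2548 and 2659 in miniSOX cells against 165, 149 and 114 in NTC cells. Both miniSOX libraries were far above all NTC libraries, with a log2 change of 5.02 ± 0.25 (adjusted p = 9.78e-09), or 4.50 within the second set. Other germline genes did not follow as a group: of 31 measured 6 rose and 4 fell (median 0.04), and 3 rose without miniSOX replicate 1. Kit, the stem cell factor receptor, fell to 1621 and 1569 in miniSOX cells, against 3404, 3536 and 4667 in NTC cells (log2 change -1.36 ± 0.20, adjusted p = 0.000166).

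Of 26 measured imprinted genes 4 rose and 11 fell (42.3% lower; median -0.60), and within the second set 4 rose and 8 fell. Leaving out miniSOX replicate 1, miniSOX replicate 2 or NTC p31 each left 6 lower, and 7 were lower without the set term. Over all genes 14.3% rose and 13.5% fell in the full fit. Mirg, a maternally expressed non-coding RNA of the Dlk1-Dio3 region, stood at 85 and 86 in miniSOX cells against 362, 370 and 474 in NTC cells. Dio3 of that region is the gene that rose, as given above. The log2 change of Mirg was -2.36 ± 0.22 (adjusted p = 3.27e-06; -2.46 within the second set), with both groups tight. Zdbf2, Impact and Usp29, all expressed from the paternal copy, were lower as well. Zdbf2 stood at 319 and 283 in miniSOX cells against 1370, 1283 and 3376 in NTC cells (log2 change -3.41 ± 0.34, adjusted p = 5.65e-06; -2.59 without the set term). Impact stood at 1422 and 1502 in miniSOX cells against 3966, 3966 and 4178 in NTC cells (log2 change -1.51 ± 0.16, adjusted p = 1.07e-05). Peg10, a retrotransposon-derived gene expressed from the paternal copy, stood at 9718 in both miniSOX libraries against 1900, 2125 and 5994 in NTC cells. Unlike those genes it rose, with a log2 change of 1.07 ± 0.24 (adjusted p = 0.00425), and 1.75 without the set term.

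Lysosomal and interferon-induced genes included some with large changes. Ctsc, the protease cathepsin C, stood at 3536 and 4032 in miniSOX cells against 654, 667 and 572 in NTC cells (log2 change 2.26 ± 0.20, adjusted p = 2.33e-06; 2.72 within the second set). Gpnmb, a lysosomal glycoprotein, stood at 726 and 836 against 70, 63 and 73 (log2 change 3.46 ± 0.48, adjusted p = 0.000111). Both were several times higher in every miniSOX library, while of 40 measured lysosome and autophagy genes 9 rose and 6 fell, with 5 higher when either miniSOX library was left out. Ifitm1, an interferon-induced membrane protein, stood at 42 and 37 in miniSOX cells against 735, 726 and 855 in NTC cells. It fell by 4.61 ± 0.21 on the log2 scale (adjusted p = 4.45e-09), while 4 of 26 measured interferon and antigen presentation genes rose and 5 fell, with 2 higher without miniSOX replicate 2.

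Some lists turned on NTC p31. Of 31 measured genes of the integrated stress response and amino acid synthesis 6 rose and 2 fell, within the second set 17 rose and 2 fell, and without NTC p31 3 rose and 12 fell; without miniSOX replicate 1, 3 rose. Phgdh, the first enzyme of serine synthesis, stood at 3770 and 3897 in miniSOX cells against 1880, 1917 and 252 in NTC cells. NTC p31 was the low library there, and the log2 change of 2.96 ± 0.46 (adjusted p = 0.000272) was 2.00 without it, 3.92 within the second set and 1.98 without the set term (adjusted p = 0.059). Of 24 genes of 2-cell-like cells 3 rose and none fell; 14 rose without NTC p31, and 1 without either miniSOX library. Of 34 genes of cholesterol and fatty acid synthesis 5 rose and 4 fell; 11 rose without NTC p31, 2 without miniSOX replicate 1 and 1 without miniSOX replicate 2. Of 33 cell cycle regulators 2 rose and 9 fell, with 5 lower without miniSOX replicate 1 and 4 without miniSOX replicate 2.

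The other lists were small or mixed. Of 11 measured Sox genes 1, Sox17, rose and 5 fell, with 2 lower without miniSOX replicate 1 or NTC p31 and 3 without miniSOX replicate 2. Of 17 Hedgehog and retinoid genes 4 rose and 6 fell, with 2 higher without miniSOX replicate 1 or NTC p31. Of 22 Nodal and TGF-beta genes 2 rose and 5 fell, with 2 lower without either miniSOX library and 3 without NTC replicate 2. Of 26 p53 targets 5 rose and 5 fell, with 3 higher without miniSOX replicate 2. Of 20 cadherins 4 rose and 3 fell, with 1 lower without NTC p31, and of 19 genes of DNA methylation 3 rose and 4 fell.

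**Figure D4:**
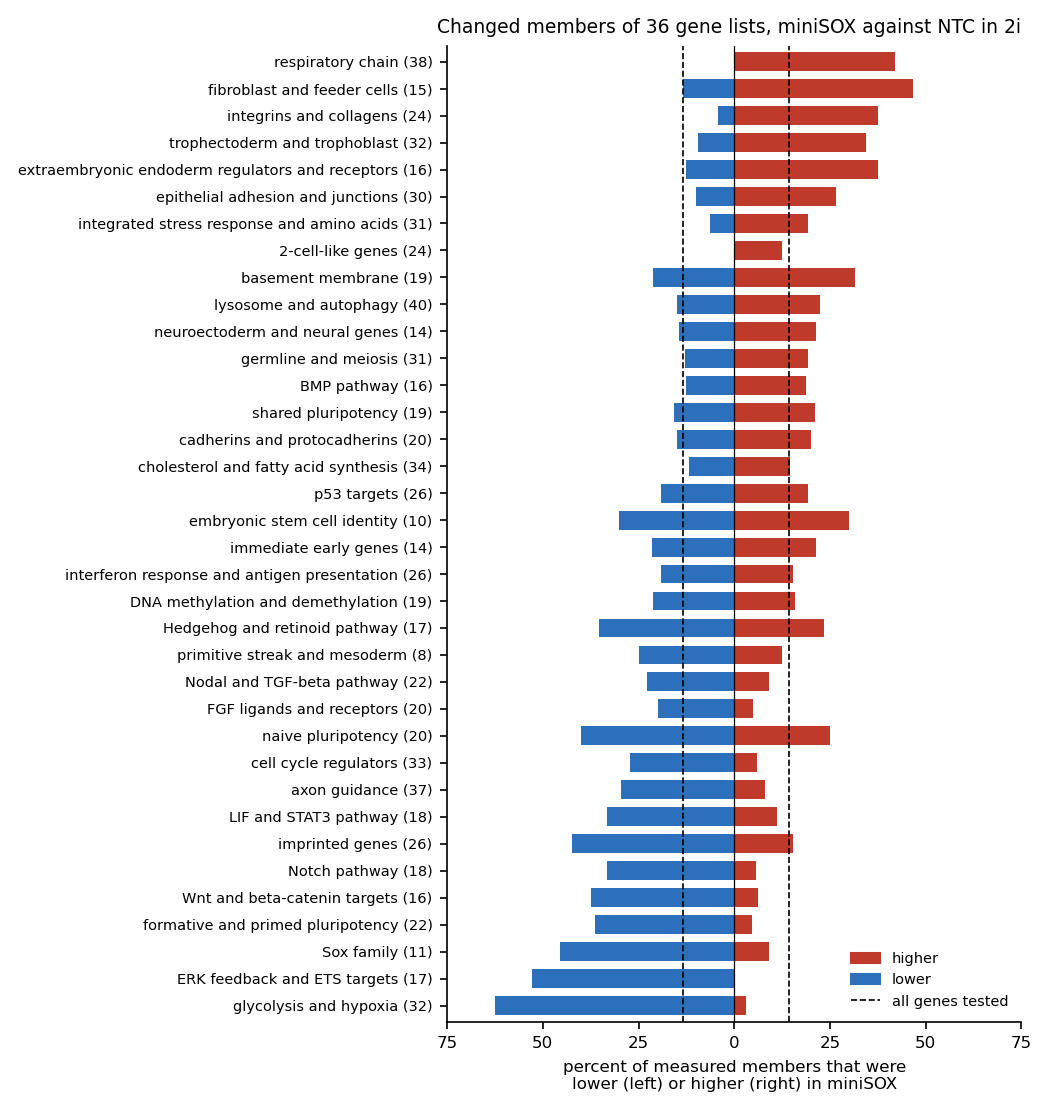
Percent of the measured members (number in brackets) of 36 gene lists that were lower (blue, left) or higher (red, right) in miniSOX than in NTC cells in 2i at an adjusted p under 0.05; the dashed lines mark all genes tested, at 13.5% and 14.3%. Glycolysis and hypoxia has 62.5% lower members, and the fibroblast and feeder list has 46.7% and the respiratory chain 42.1% higher members.

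Set beside cells given SOX2 itself, miniSOX cells differed in 2449 genes (14.9%), 1204 higher and 1245 lower, and in 1080 within the second set. The count was 917 without miniSOX replicate 1 and 871 without miniSOX replicate 2. SOX2-rescued cells carry a lentivirus and received doxycycline too. Of the 2449 genes, 503 also differed between miniSOX and FNV cells. Stra8 stood at 2548 and 2659 in miniSOX cells against 361, 362, 130 and 122 in SOX2 cells (log2 change of miniSOX over SOX2 4.22 ± 0.23, adjusted p = 5.44e-08). Porcn, which acylates Wnt proteins, stood at 159 and 174 in miniSOX cells against 75, 72, 18 and 15 in SOX2 cells (log2 change 3.14 ± 0.20, adjusted p = 2.87e-07). Steap3, an iron reductase, stood at 1632 and 1694 in miniSOX cells against 507, 609, 402 and 496 in SOX2 cells (log2 change 1.84 ± 0.14, adjusted p = 1.09e-06). All 3 were higher in each miniSOX library than in any SOX2 library. For Porcn and Steap3 the sign of the change over FNV cells depended on the setting, as given at the end. Lower in miniSOX cells were Lifr, at 188 and 165 against 976, 936, 1146 and 1040 in SOX2 cells (log2 change -2.74 ± 0.16, adjusted p = 8.78e-08), and Tiam1, an activator of RAC1. Tiam1 stood at 115 and 107 in miniSOX cells against 438, 416, 685 and 857 in SOX2 cells (log2 change -2.81 ± 0.12, adjusted p = 4.74e-09). Dgkh, a diacylglycerol kinase, stood at 92 and 112 against 692, 643, 752 and 676 (log2 change -2.84 ± 0.14, adjusted p = 2.27e-08). Of 26 interferon and antigen presentation genes 3 were higher and 7 lower in miniSOX than in SOX2 cells (median 0.16), where 14.9% of all genes differed.

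Genes of glycolysis and hypoxia were also set beside those of the other rescued cells. Against SOX2 cells 3 of the 32 measured members were higher and 3 lower in miniSOX cells (median -0.23), where 14.9% of all genes differed. Against FNV cells none was called in either direction (median 0.00), where 7.66% of all genes differed. Egln3 stood at 16 and 17 in miniSOX cells, 19, 17, 34 and 20 in FNV cells and 31, 34, 35 and 22 in SOX2 cells. Its log2 change was -0.81 ± 0.27 over SOX2 cells (adjusted p = 0.0557) and -0.36 ± 0.27 over FNV cells (adjusted p = 0.458), which missed the threshold both times, and every library of the 3 lines lay far below NTC cells. Itga3 stood at 873 and 913 in miniSOX cells, 1136, 1178, 855 and 613 in FNV cells and 1049, 1162, 547 and 622 in SOX2 cells. The rescued lines overlap for Itga3, with a log2 change of 0.33 ± 0.33 over SOX2 cells (adjusted p = 0.553). Nrp2 stood at 6 and 11 in miniSOX cells, 3, 2, 7 and 7 in FNV cells and 51, 62, 69 and 55 in SOX2 cells. There SOX2 cells held a middle level, above miniSOX cells by the test (log2 change of miniSOX over SOX2 -3.06 ± 0.28, adjusted p = 9.51e-06). Klf4 stood at 8736 in both miniSOX libraries, 4973, 4525, 6871 and 3936 in FNV cells and 3580, 3647, 5266 and 4048 in SOX2 cells. It was higher in miniSOX than in SOX2 cells (log2 change 1.06 ± 0.23, adjusted p = 0.00768, and 0.101 within the second set) and missed the threshold against FNV cells (0.78 ± 0.23, adjusted p = 0.0565).

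From FNV cells miniSOX cells differed in fewer genes: 1260 (7.66%), 627 higher and 633 lower, and in 105 within the second set. This count was the least steady, at 140 without miniSOX replicate 1, 128 without miniSOX replicate 2, 835 without FNV replicate 1 and 2995 without FNV p21. Sox17 stood at 1813 and 1953 in miniSOX cells against 3160, 3301, 1792 and 2659 in FNV cells, and its log2 change of miniSOX over FNV was -0.12 ± 0.35 (adjusted p = 0.88). Trim35, a RING-finger protein, stood at 898 and 1035 in miniSOX cells against 457, 439, 355 and 309 in FNV cells. Trim35 was higher in both miniSOX libraries, with a log2 change of 1.55 ± 0.18 (adjusted p = 0.000579; 1.54 within the second set). Mdk, the heparin-binding growth factor midkine, stood at 1716 and 1591 in miniSOX cells against 556, 554, 880 and 958 in FNV cells (log2 change 0.95 ± 0.10, adjusted p = 0.000509). Ndufa4, a respiratory chain subunit, stood at 1737 and 1715 against 1686, 1502, 992 and 1149 (log2 change 0.73 ± 0.10, adjusted p = 0.00222, and 0.0692 within the second set). Of the 38 respiratory chain genes 9 were higher and none lower in miniSOX than in FNV cells, against 627 higher and 633 lower of 16443 genes. Their median log2 change was 0.33, against -0.01 over all genes. Lower in miniSOX cells was Lpin1, a phosphatidic acid phosphatase, at 321 and 286 against 482, 490, 603 and 528 (log2 change -0.82 ± 0.10, adjusted p = 0.00148). Epcam, at 1303 and 1363 in miniSOX cells against 2698, 3326, 2268 and 1962 in FNV cells, was lower in miniSOX cells by 0.66 ± 0.10 on the log2 scale (adjusted p = 0.0028, and 0.052 within the second set). Of 30 epithelial genes 7 were lower and none higher in miniSOX than in FNV cells (median -0.52), against 633 lower and 627 higher of 16443 genes. Dab2 stood at 2384 and 2503 in miniSOX cells, below the 4972, 4972, 3897 and 4178 in FNV cells (log2 change of miniSOX over FNV -1.11 ± 0.26, adjusted p = 0.0218, and 0.105 within the second set).

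The difference between miniSOX and NTC cells was not the same in 2i and in SL. It differed in 2248 genes (13.7%), with 1268 changes more positive and 980 more negative in 2i, and 1317 of these genes had changed in 2i. The count was 1272 to 1369 without any 1 of the 4 miniSOX libraries and 1298 without NTC SL replicate 1. In SL, all miniSOX libraries belong to the second set and all NTC libraries to the first, so that difference rests on the set term fitted in 2i. Ccnd1, cyclin D1, stood at 1627 and 1521 in miniSOX cells against 1742, 2054 and 1261 in NTC cells in 2i, where the groups overlap. In SL it stood at 1037 and 924 in miniSOX cells against 58 and 56 in NTC cells, giving a difference between media of -4.36 ± 0.29 (adjusted p = 6.96e-07). Ak4, a mitochondrial adenylate kinase, stood at 3110 and 3209 in miniSOX cells against 4582, 4525 and 6247 in NTC cells in 2i, and at 441 and 355 against 2932 and 2932 in SL. The decrease was smaller in 2i, with a difference between media of 2.28 ± 0.18 (adjusted p = 3.75e-06). Adam23, a cell surface protein, stood at 138 and 132 in miniSOX cells against 1198, 1137 and 921 in NTC cells in 2i, and at 1603 and 1687 against 1709 and 1900 in SL (difference -3.03 ± 0.26, adjusted p = 5.26e-06). Slc1a1, a glutamate transporter, stood at 855 and 886 in miniSOX cells against 244, 295 and 262 in NTC cells in 2i, and at 84 and 103 against 135 and 139 in SL (difference 2.33 ± 0.19, adjusted p = 4.53e-06). Itga3 was already high without 2i, at 1032 and 1018 in miniSOX cells and 904 and 777 in NTC cells in SL, and Stra8 stood at 428 and 458 in miniSOX cells against 287 and 268 in NTC cells in SL. Of 22 formative and primed genes 10 had a more negative change in 2i and none a more positive one, against 980 and 1268 of 16443 genes. Their median difference was -1.44, against -0.014 over all genes.

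**Figure D5:**
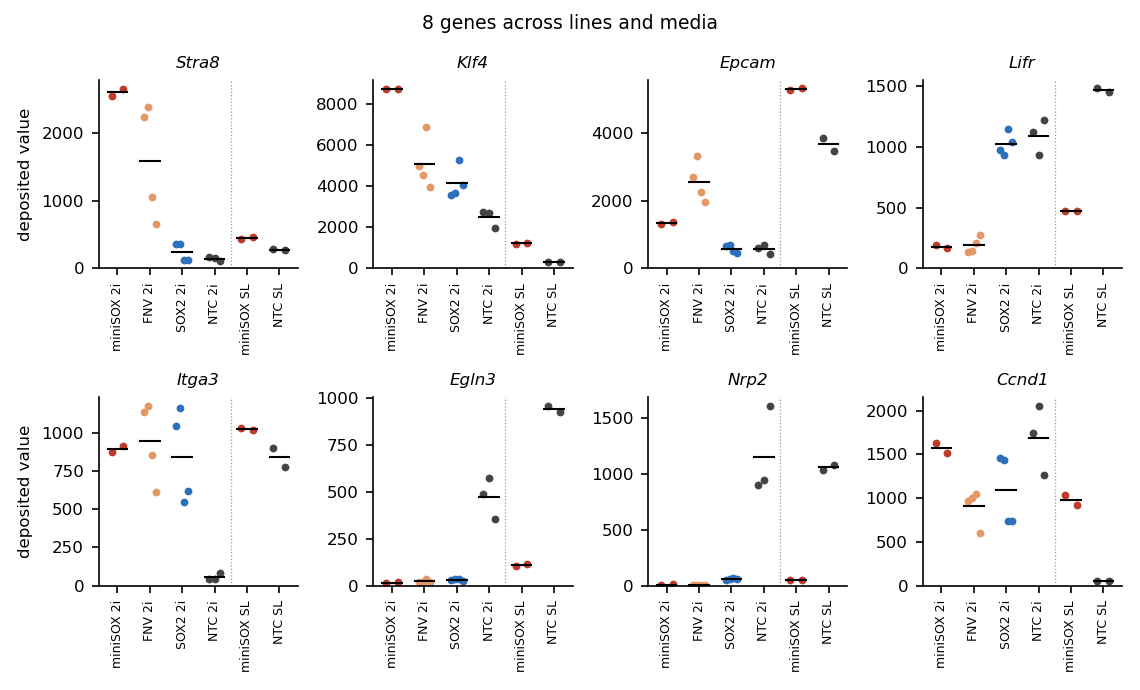
Deposited values of 8 genes in every library of miniSOX, FNV, SOX2 and NTC cells in 2i and of miniSOX and NTC cells in SL; points are libraries and black lines group means. Stra8 and Klf4 are highest in miniSOX cells in 2i, and Egln3 and Nrp2 are low in all 3 rescued lines in 2i.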

How the data were processed

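Polyadenylated RNA of 21 libraries was sequenced. The deposited values, treated as a score, are whole numbers already normalized across libraries by the authors, since sorted values differ by at most 3 from library to library. RSEM, Bowtie2 2.0 and the build mm10 are named, per the submitters' processing notes; the normalization software and use of strand are not given in the sources used here. They are not counts, so no count model was used.

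Values were taken as log2(value + 1) and fitted with limma 3.58.1 in R 4.3.3, with terms for 8 groups and the deposited set, over all 21 libraries and with trended, robust moderation. Tests are two-sided, adjusted by Benjamini-Hochberg over 16443 genes, and changed means an adjusted p under 0.05. Errors after ± are standard errors unless stated. The code was tested on simulated data. Of the columns, 16 matched 1 sample each and 5 (p21 and p31) only a group. Gene positions are from GENCODE M21, on GRCm38. Figures were made with matplotlib 3.10.9.

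The gene lists and the comparisons were chosen with earlier results of these data known. Genes were named from sets fixed by rule, and not every gene of a set is named. The sets were Sox2 and Sox17, and the 10 largest changes per direction (no overlap, and a mean of 50 or more where higher). Left out of the latter were predicted genes (Gm plus digits, Rik or clone names), genes jumping from 0 to at least 20, and genes at 0 throughout a group. They also took in up to 6 changed members of a list per direction by adjusted p, and the 6 most abundant changed genes per direction. Last came up to 4 per direction listed at 0 throughout a group, and the 8 smallest adjusted p per direction in the other comparisons. Of genes outside those sets, Pou5f1, Zfp42 and Cdx2 were named after their values were seen. Promoter motifs were not analysed here. Alternatives were other pseudocounts, a minimum mean, other scaling, other designs and leaving out each library.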

Additional observations from a re-analysis of the deposited data

Results flagged for a closer look

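The change of miniSOX over NTC cells differed between 2i and SL, by limma's test of the difference itself, in 2248 genes (13.7%). It also did so in 62 of the 100 genes named with a change. Many of those were named for their change in 2i, which is part of this difference, and some for the difference itself. Their share is therefore not comparable with that of all genes. The values below are the change in 2i minus the change in SL on the log2 scale, so a negative value means a change that was more negative in 2i. In SL, all miniSOX libraries are of the second deposited set and both NTC libraries of the first.

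The difference was positive for Sox21 (3.82) and, among pluripotency genes, for Nanog (0.98), Dppa3 (2.30), Fbxo15 (1.11) and Nr0b1 (4.28). It was negative for the formative genes Etv4 (-4.22), Zic2 (-3.04) and Lef1 (-5.61). The ERK feedback gene Spry4 had -3.09, and Fgf3 -4.04. In the LIF pathway Lifr had -0.84, Il6st -0.35 and Socs2 -2.02. Notch4 had -6.33 and Jag1 -2.09. Of guidance, neural and mesenchymal genes, those below had negative values, while the list of 14 neural genes had 3 more positive and 4 more negative members (median 0.67): Ntn1 at -3.44, Nrp2 at -2.38, Slit3 at -2.95, Tubb3 at -5.08, Cdh2 at -3.44, Vim at -3.49 and Col1a2 at -3.76.

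In glycolysis and hypoxia, Egln3 had -1.65, Pkm -1.29, Pgk1 -1.72 and Slc16a3 -5.91, while Pfkm had 1.04. The respiratory genes Uqcrc2 and Atp5a1 had 0.61 and 0.72. In the endoderm list, Gata6 had 6.70, Dab2 2.39 and Lrp2 2.43. Gata6 stood at 157 and 165 in miniSOX cells against 20, 16 and 76 in NTC cells in 2i, and at 17 and 8 against 176 and 218 in SL. Of matrix and adhesion genes, Sparc had 0.99, Nid1 1.62, Itga3 3.61, Col5a1 1.20, Epcam 0.52 and Col4a1 -3.0. Eomes had -4.74.

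Stra8 had 3.11 and Kit 1.95. Among imprinted genes Dio3 had 3.69 and Peg10 1.90, while Mirg had -1.59, Zdbf2 -2.45, Usp29 -1.14 and Impact -1.13. Of the remaining genes, the difference was positive for Megf11 (2.16), Sdc3 (3.86), Ctsc (1.41), Gpnmb (3.87), Porcn (3.03), Steap3 (2.44), Lpin1 (1.92), Ak4 (2.28) and Slc1a1 (2.33). It was negative for Ifitm1 (-2.84), Tiam1 (-2.95), Dgkh (-2.09), Mdk (-0.54), Ccnd1 (-4.36) and Adam23 (-3.03). In the FNV and SOX2 groups in 2i, the only ones with 4 libraries, none of 42 sets of values held a library far from the other 3; the miniSOX and NTC groups are too small for that rule.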

How the results depend on the processing

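Against NTC cells the number of changed genes (4561) was 2842 within the second set alone, of which 2241 are among the 4561, 1735 with only the miniSOX and NTC libraries in 2i, 258 with replicates 1 and 2 averaged, of which 241 are among the 4561, and 2718 to 4186 when 1 library was left out. Against SOX2 cells (2449) the count was 1414 without a term for the deposited set, 1080 within the second set, 25 with averaged replicates and 871 to 2230 with 1 library left out. Against FNV cells (1260) it was 276, 105 and 2 under the same 3 settings, 652 with libraries in 2i only, and 128 to 2995 with 1 library left out. For the difference between media (2248) it was 1191 without the set term, 24 with averaged replicates and 1272 to 2764 with 1 library left out. Equal replicate numbers did not mark pairs (r = -0.0335 between the deviations of miniSOX and NTC libraries in 2i); with the replicate number as a block the counts were 4273, 2260, 1042 and 2064. Averaging moved 67 of 72 list counts by over 1.5 times. Signs turned for 5 values. Pou5f1 (-0.06) became 0.0667 without the set term, with or without the other groups, 0.25 within the second set, 0.0269 with averaged replicates, and ranged from -0.36 without NTC p31 to 0.0343 without NTC replicate 2. Cdx2 (-1.21) became 1.02 without the set term, with or without the other groups, and ranged from -1.51 without NTC replicate 2 to 0.0092 without NTC p31. Ccnd1 in 2i (0.34) became -0.0709 without the set term, with or without the other groups. Against FNV cells, Porcn became -0.0399 without the set term and Steap3 0.0351 within the second set. The causes were not tested. Depth is unknown, and with 2 miniSOX libraries their number limits the precision.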
